A study of Mus musculus with 4 samples.

Results

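The regions described here are m6A peaks that lie in genes holding many of them in mouse white adipose tissue. Members are the peaks whose midpoint fell inside the span of a protein-coding gene that held at least 7 peak midpoints in the vehicle list and at least 7 in the entacapone list. The rule uses the measured peaks themselves, so the number of midpoints per gene is a description and supports nothing. It found 273 member genes of 21900 protein-coding genes, 1.25%. They held 2378 of 22860 vehicle peaks, 10.4%, and 2689 of 31856 entacapone peaks, 8.44%, so that 5067 of 54716 peaks are members, 9.26%.

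The study asked which m6A peaks differ in inguinal white adipose tissue after entacapone, a drug for Parkinson's disease that has been reported to inhibit the m6A eraser FTO. All mice were male C57BL/6, aged 23 weeks and obese from a high fat diet (DIO), and received vehicle or Entacapone; dose and duration are not given in the labels. Each treatment has 1 m6A immunoprecipitate (IP), whose peak list is used here, and 1 input library. With 1 library per kind there is no replicate, so nothing is tested across samples, and whether RNA of several animals was pooled for a library is not stated in the labels.

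N6-methyladenosine, m6A, is a methyl mark placed on messenger RNA by a complex built around METTL3 and METTL14, and removed by FTO and ALKBH5. It is known to gather around stop codons, in 3' untranslated regions and in long internal exons, and it bears on RNA decay, splicing and translation through reader proteins. FTO is best known for the association of its gene with body fat. In m6A sequencing RNA is broken into fragments and pulled down with an antibody, so a transcript with several methylated stretches yields several separate peaks.

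A stretch of sequence is shown for the member genes in which peaks of both lists covered at least 30 common bases around a transcription start. The stretches run from 170 bases before to 30 bases after a start in RefSeq (assembly GRCm38.p6, mm10), 5' to 3' on the gene's strand, and capitals mark bases under a vehicle peak and an entacapone peak alike. The 6 stretches lie at chr7:122970394-122970593 (Rbbp6, plus strand), chr7:127511813-127512012 (Srcap, plus), chr2:32150978-32151177 (Prrc2b, plus), chr5:57717911-57718110 (Pcdh7, plus), chr5:135187153-135187352 (Baz1b, plus) and chr2:45113250-45113449 (Zeb2, minus).
Rbbp6: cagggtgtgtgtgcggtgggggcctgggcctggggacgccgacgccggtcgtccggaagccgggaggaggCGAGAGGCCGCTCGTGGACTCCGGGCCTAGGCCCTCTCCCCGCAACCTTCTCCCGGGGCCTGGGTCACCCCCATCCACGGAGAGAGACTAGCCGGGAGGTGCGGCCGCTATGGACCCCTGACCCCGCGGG
Srcap: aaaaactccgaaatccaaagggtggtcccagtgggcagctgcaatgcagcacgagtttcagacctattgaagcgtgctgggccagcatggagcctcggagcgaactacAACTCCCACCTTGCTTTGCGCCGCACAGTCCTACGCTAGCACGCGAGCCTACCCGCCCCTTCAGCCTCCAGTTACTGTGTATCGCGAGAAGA
Prrc2b: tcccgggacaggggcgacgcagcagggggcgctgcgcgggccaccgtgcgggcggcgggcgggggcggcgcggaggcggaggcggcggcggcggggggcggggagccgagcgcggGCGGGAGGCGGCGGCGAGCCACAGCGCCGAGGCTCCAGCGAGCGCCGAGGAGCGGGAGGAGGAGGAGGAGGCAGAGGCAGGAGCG
Pcdh7: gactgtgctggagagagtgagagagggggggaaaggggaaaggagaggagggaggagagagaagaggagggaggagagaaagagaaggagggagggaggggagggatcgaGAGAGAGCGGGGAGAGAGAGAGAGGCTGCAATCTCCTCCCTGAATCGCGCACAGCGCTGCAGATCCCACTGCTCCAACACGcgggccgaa
Baz1b: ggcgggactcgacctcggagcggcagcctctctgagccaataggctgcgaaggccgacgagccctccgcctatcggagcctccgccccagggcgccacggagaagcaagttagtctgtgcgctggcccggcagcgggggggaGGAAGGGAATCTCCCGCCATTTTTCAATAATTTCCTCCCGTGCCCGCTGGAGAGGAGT
Zeb2: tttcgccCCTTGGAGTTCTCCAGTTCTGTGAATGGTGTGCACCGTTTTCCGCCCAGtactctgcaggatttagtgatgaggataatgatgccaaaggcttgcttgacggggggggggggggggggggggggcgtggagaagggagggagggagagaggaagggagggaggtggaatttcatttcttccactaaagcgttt
In Rbbp6, whose product is a ubiquitin ligase that takes part in mRNA 3' end processing, 130 bases were common to both peaks, 100 of them before this start and 30 after it. The Rbbp6 peaks had a fold of 2.35 in the vehicle list and 2.57 in the entacapone list, where fold is the authors' enrichment of IP over input for that peak. Srcap, a chromatin remodelling ATPase that exchanges the histone variant H2A.Z, had 92 common bases and folds of 3.74 and 3.41. In Prrc2b, an RNA-binding protein, the peaks began within 1 base of each other, at 32151092 and 32151093, and had folds of 2.33 and 4.35. Zeb2, a zinc finger repressor of epithelial genes, had its 49 common bases wholly before the start shown, which is not the outermost end of its span.

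Letters of the m6A consensus were counted in these stretches as a description. The motif GGAC occurred on the gene's strand in 3 of the 6 stretches shown and on either strand in 4, and in 1 of them, Rbbp6, it lay under the common peak bases. Among all 32851 RefSeq start stretches of the same 200 bases, 51.1% held GGAC on the gene's strand and 76.1% on either strand. The longer GGACT, each match of which is also a GGAC match, occurred on the gene's strand in 2 shown stretches against 17.9% of all stretches. Among the 270 start stretches of the 194 member genes with one, the shares were 52.6% for GGAC and 15.2% for GGACT on the gene's strand, near those of all genes. A member peak reached into a start stretch in 18 of these genes in the vehicle list, in 18 in the entacapone list and in 9 in both. The same count was not made over other genes, and most of each stretch lies before the start. These numbers therefore do not say whether peaks near starts were rare in members.

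Of the 8475 protein-coding genes with a midpoint in each list, the rule takes 3.22%. The median member gene held 9 vehicle midpoints (range 7 to 57) and 10 entacapone midpoints (range 7 to 81). At least 7 vehicle midpoints were found in 340 genes and at least 7 entacapone midpoints in 618, so 67 genes met the rule in the vehicle list alone and 345 in the entacapone list alone. The threshold ran through a crowded range: 95 members had exactly 7 midpoints in at least 1 list, and 141 genes with 7 or more in 1 list were left out with 6 in the other. Just inside lay Pcdhgb6 (7 vehicle and 17 entacapone midpoints), Arhgap24 (7 and 13) and Dlc1 (7 and 12). Just outside lay Pcdhga10 (6 and 14), Asph (6 and 11) and Huwe1 (6 and 11), so membership separates genes that differ by 1 midpoint.

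**Figure D1:**
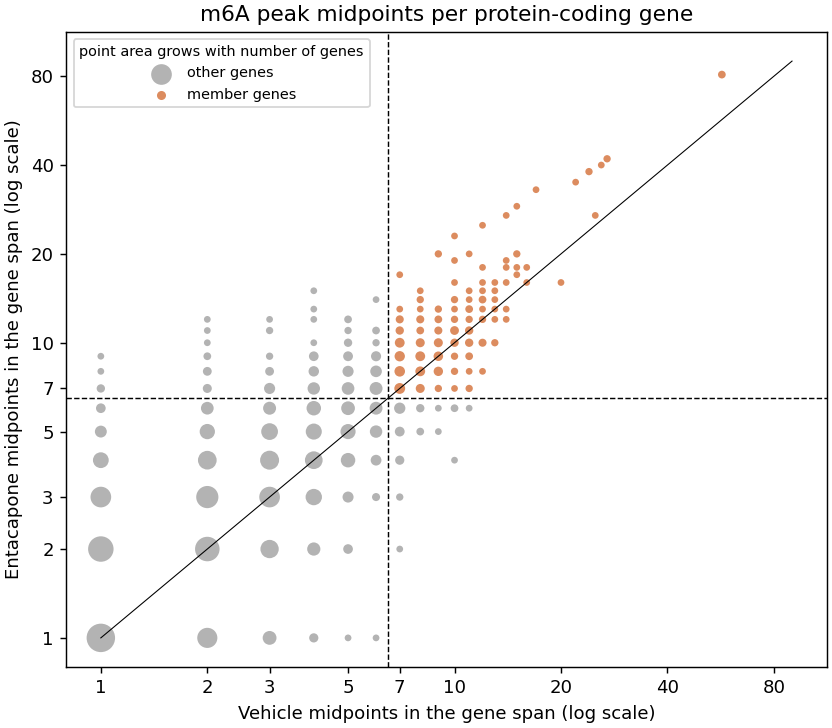
Peak midpoints per protein-coding gene in the vehicle list (x axis, log scale) and the entacapone list (y axis, log scale), for the genes with a midpoint in each. Point area grows with the number of genes, dashed lines mark the threshold of 7, the solid line marks equal numbers, and the 273 member genes (orange) reach from 7 midpoints to 57 and 81.

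The highest counts came from the locus of the clustered protocadherins on chromosome 18, which encodes cell adhesion proteins. Many of its genes join variable first exons to common last exons. Its peaks also lay in Pcdhb genes, and 2 vehicle and 2 entacapone midpoints lay in the span of Taf7. In this locus 17 member genes overlap one another and share peaks, so their counts repeat the same peaks. Gm37013, Gm38666 and Gm38667, gene models that span the cluster over 889, 874 and 868 kb, each held the same 57 vehicle and 81 entacapone midpoints. Pcdhga1 and Pcdhga2 held 27 and 42 each, Pcdhga3 26 and 40, Pcdhga4 and Pcdhgb1 24 and 38, and Pcdhgb2 22 and 35. Pcdhga5 held 17 and 33 and Pcdhga6 15 and 29. Counted once, the locus had 57 vehicle peaks, 38 of them overlapping an entacapone peak, with a median fold of 5.48, and 81 entacapone peaks, 41 overlapping a vehicle peak, with a median fold of 4.89. A stretch of 5 kb in it held at most 6 vehicle or 5 entacapone midpoints, against a median of 4 and 5 over all members. With this locus counted as 1, the 273 genes stand for 257 loci.

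Genes outside this locus with many midpoints are given next, picked 1 per locus after the values were seen. Spen, an RNA-binding transcriptional repressor used in X inactivation and Notch signalling, held 25 vehicle and 27 entacapone midpoints in a span of 70.8 kb at chr4:141467885-141538644. Atg4a, a protease of autophagy, held 20 and 16. Golgb1, the Golgi tether giantin, and Tnrc18 held 15 and 20 each, and Plec, the cytoskeletal linker plectin, held 16 and 18. The histone H3 lysine 4 methyltransferases Kmt2a and Kmt2d held 14 and 19, and 14 and 18. Bptf, the largest subunit of the NURF remodeller, held 15 and 18, Stard9, a mitotic kinesin, held 15 and 17, and Zeb2 held 12 and 18. Prdm16, the transcription factor that directs brown and beige adipocyte fate, held 14 and 16.

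Some counts belong to a neighbour as much as to the gene named. When each peak was given to the shortest span that holds it, 35 of the 273 genes fell below 7, among them all 17 of the protocadherin locus. Ifit1bl1, with 16 vehicle and 16 entacapone midpoints, contains the interferon-induced gene Ifit1, whose shorter span held 7 and 4 of them. Macf1, a microtubule and actin crosslinker with 12 and 16, contains D830031N03Rik, which held 6 and 9 of them. Likewise Rnf214 overlaps Bace1, which encodes the beta-secretase and held 4 and 5 of its midpoints, and Gm20517 overlaps Usp49, which held 4 and 7.

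Genes with the same function recurred among members, as counted over 12 lists of regulators, large proteins and fat cell genes. The lists were written with earlier results of these data known and most hold long genes, so their counts describe the members and are no evidence of enrichment. Of all protein-coding genes 1.25% are members, and of those with a midpoint in each list 3.22%. Large zinc finger and homeodomain transcription factors had 18 members of 38 genes (47.4%; median span of the list 138 kb). Giant cytoskeletal and scaffold proteins had 11 of 31 (35.5%; 142 kb). Nuclear receptor coregulators and Mediator subunits had 8 of 25 (32.0%), and chromatin remodellers and acetyltransferases 16 of 51 (31.4%). Notch, Wnt and Hippo signalling had 9 of 33 (27.3%), histone methylation and demethylation enzymes 9 of 34 (26.5%), and RNA-binding and RNA-silencing proteins 5 of 31 (16.1%). Members were fewer in other lists of long genes: giant ubiquitin ligases and other large enzymes, with a median span of 142 kb, had 2 of 28 (7.14%), and extracellular matrix and lipoprotein receptor genes, at 93.3 kb, had 1 of 25 (4.00%).

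Among the transcription factors, Tshz2 held 14 vehicle and 13 entacapone midpoints, Prdm16 14 and 16, Zfhx3 13 and 16, and Zeb2 12 and 18. Zfhx3, a homeodomain factor of 682 kb, had groups of peaks far from each other, with 3 vehicle peaks at 424 to 425 kb from its start and 7 at 669 to 677 kb. Among remodellers Bptf was followed by Baz2b, a bromodomain protein, with 10 and 19, Srcap with 13 and 12, and Baz1a with 10 and 14. In the list of histone methylation and demethylation enzymes, Kmt2a and Kmt2d were followed by Ash1l with 12 and 12. Kmt2c and Kmt2e of the same list held 10 and 12, and 12 and 10. Of the coregulators, Rere held 11 and 13, and Rai1 and Tcf20 10 and 10 each. The large coactivator Ncoa6 held 8 and 8.

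In signalling, the Notch coactivator Maml2 held 11 and 20 midpoints, the Wnt inhibitor Apc 13 and 10, the beta-catenin cofactor Bcl9l 11 and 10, and the Hippo-linked cadherin Fat1 8 and 9. Notch2 itself held 8 and 8. Scaffold proteins were led by Golgb1 and Plec, then Macf1 with 12 and 16 and Dst with 12 and 14. The list of RNA-binding proteins also counted Tnrc18, which is better known as a chromatin protein; its other members included Zc3h13 with 11 and 10, Tnrc6c with 9 and 9 and Zc3h4 with 7 and 10. Zc3h13 is itself a part of the m6A writer complex, and Tnrc6c a scaffold of microRNA silencing. The large enzymes were Rnf213 with 7 and 12 and Mdn1 with 7 and 9, and the one matrix or receptor gene was Heg1 with 8 and 7.

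Few genes central to the fat cell were members, at shares near those of all genes. No gene of the 18 on the white adipocyte list qualified, where 1.25% of all genes did, and 8 of them had a midpoint in each list: Pparg, the adipocyte master regulator, held 3 vehicle and 6 entacapone midpoints, and the lipid droplet coat gene Plin1 2 and 4. Adipoq and Fabp4, the most characteristic fat cell transcripts, held none in either list. The median span of that list was 12.5 kb. Of the 27 genes of insulin, AKT and FOXO signalling, Irs1, the insulin receptor substrate, was the one member (3.70%), with 7 and 10. Its partner Irs2 missed the rule with 6 and 7 and Foxo1 with 5 and 6. None of 25 immediate early and stress genes qualified, whose list has a median span of 4.29 kb; Klf4 held 5 and 6.

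The tissue label was set against defining markers, whose peaks give a partial answer, because a peak needs the mark as well as the transcript. Of 10 white adipocyte markers 5 held a vehicle midpoint and 6 an entacapone midpoint, and Adipoq, Fabp4, Pnpla2 and Cfd held none. Markers of other cells also held peaks. In the vehicle and entacapone lists, endothelial markers summed to 3 vehicle and 20 entacapone midpoints over 5 genes, lymphocyte markers to 6 and 16 over 6, skeletal muscle markers to 7 and 18 over 6, macrophage markers to 4 and 7 over 6, fibroblast markers to 5 and 5 over 4 and epithelial markers to 5 and 6 over 5. Nerve and Schwann cell markers summed to 12 and 15 over 4, of which the myelin gene Mbp, a member, gave 7 and 9. Brown or beige adipocyte markers summed to 16 and 22 over 6, of which Prdm16 gave 14 and 16, and Ucp1, Cidea, Dio2 and Cox8b held none. The part of cell composition in any difference between the lists was not tested, and in bulk tissue fewer cells of a type cannot be told apart from less RNA per cell.

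Member genes were long. Their median span was 97.6 kb (quartiles 50.1 and 175 kb; range 4.52 to 889 kb; n = 273), and 92.1 kb with 1 gene per locus, against 30.7 kb for the 4123 genes with 2 to 6 midpoints in each list and 17.1 kb for all protein-coding genes. Spans over 100 kb occurred in 129 members (47.3%), and spans under 20 kb in 20 (7.33%). Of genes with a midpoint in each list, members made up 0.432% of those with a span under 10 kb (7 of 1621), 1.17% from 10 to 30 kb, 3.89% from 30 to 100 kb, 8.28% from 100 to 300 kb and 12.6% above 300 kb (34 of 269). The share of members thus grew with each class of span. Within the members length told little of the count: across the 257 loci, Spearman's rank correlation of midpoints with span was 0.224, and across the 8475 genes with a midpoint in each list it was 0.288, both as descriptions over genes that share the same libraries.

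**Figure D2:**
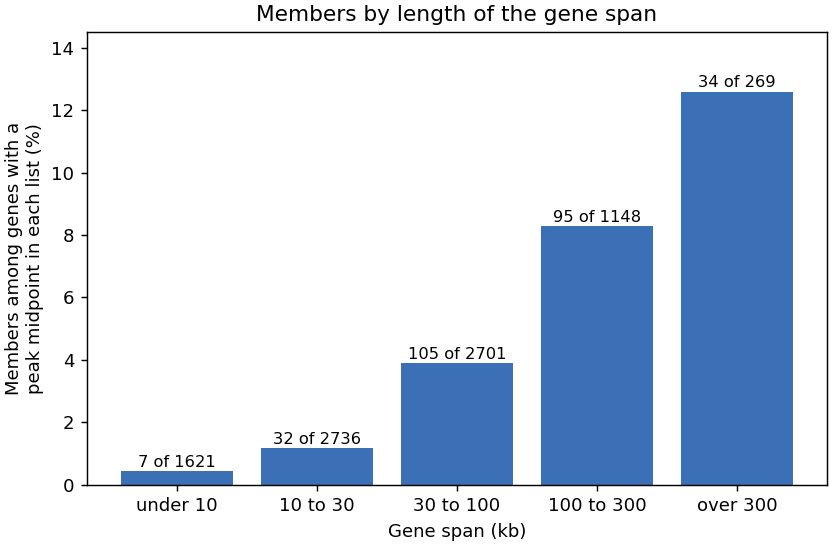
Percent of genes with a midpoint in each list that are members (y axis), by class of gene span in kb (x axis), with the numbers of genes above the bars. The share was 0.432% in the shortest class and 12.6% in the longest.

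Short members showed that many peaks can fit into a few kilobases. Mpeg1, a pore-forming protein of macrophages, had the smallest span of all members, 4.52 kb at chr19:12460770-12465285, and held 8 vehicle and 11 entacapone midpoints. Its vehicle peaks lay 0.594, 0.963, 1.21, 1.61, 2.38, 2.76, 4.07 and 4.36 kb from the start with folds between 2.06 and 3.05. All 8 overlapped an entacapone peak, and the 3 entacapone peaks without a partner lay 1.91, 3.28 and 3.54 kb from the start. The entacapone list thus filled gaps between peaks that the vehicle list already had. Ranbp6, an importin relative, held 7 and 7 in 4.87 kb, Hic1, a growth-restraining transcriptional repressor, 7 and 8 in 8.88 kb, and Zfp646, a zinc finger protein, 10 and 13 in 9.08 kb. In Zfp646 all 10 vehicle peaks and 12 of 13 entacapone peaks overlapped one of the other list.

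At the other end were genes whose peaks were scattered. Celf2, a splicing regulator and the longest member outside the protocadherin locus, has a span of 857 kb and held 7 vehicle and 11 entacapone midpoints, with median distances between neighbours of 57206 and 46270 bp. Over all members the density ran from 0.0817 to 17.7 vehicle midpoints per 10 kb of span (median 1.01) and from 0.0923 to 24.4 entacapone midpoints (median 1.14). The highest of each was Mpeg1.

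Neighbouring peaks of members were mostly close. The median distance between the midpoints of neighbouring peaks was 1062 bp for vehicle peaks (quartiles 482 and 7805 bp; 2121 pairs) and 1082 bp for entacapone peaks (466 and 7371 bp; 2432 pairs). In genes with 2 to 6 midpoints in each list it was 1344 and 1494 bp. Distances under 1 kb made up 48.9% and 48.2% of pairs in members, against 44.6% and 43.6% in those genes, and distances over 10 kb made up 22.0% and 21.9% against 25.4% and 25.2%. Short distances were thus somewhat more common in members and long ones somewhat less, and both lists gave nearly the same distribution. A rule that asks for many peaks favours short distances, so this is a description of what was chosen.

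**Figure D3:**
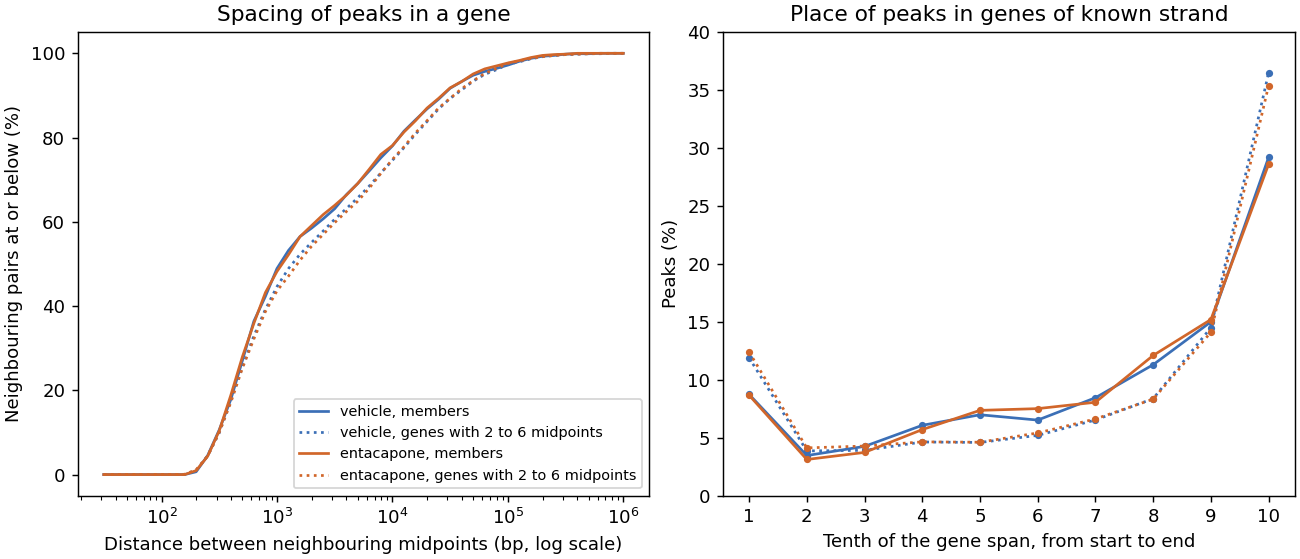
Left, cumulative percent of neighbouring peak pairs (y axis) by distance between midpoints in bp (x axis, log scale), for members (solid) and genes with 2 to 6 midpoints in each list (dotted), vehicle in blue and entacapone in orange. Right, percent of peaks in each of 10 equal bins of the gene span from start to end for genes of known strand; the last bin held 29.2% and 28.6% of member peaks.

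Groups were counted as runs, in which each midpoint lies less than 5 kb from the next. A run of at least 7 peaks was found in 83 members in the vehicle list and 100 in the entacapone list. In 167 and 168 members the longest run held at least 50% of the gene's peaks, and in 30 and 25 it held them all. In Spen 19 of 25 vehicle peaks formed a run between 59.8 and 70.6 kb from the start, near the end of the span, and 23 of 27 entacapone peaks formed one between 48.7 and 70.6 kb. A window of 5 kb held up to 11 midpoints in Spen in each list, the most of any member in the vehicle list. In Map1a, a neuronal microtubule-associated protein, all 13 vehicle peaks formed a run from 10.4 to 19.8 kb of a 21.2 kb span, and all 14 entacapone peaks one from 10.5 to 19.8 kb. Helz2, a helicase and nuclear receptor coactivator, had its 12 vehicle and 14 entacapone peaks in a run along nearly the whole 14.4 kb span.

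Other genes had separate groups at set places, which both lists found again. Prdm16, of 321 kb, had groups of 5 vehicle peaks between 1.07 and 4.87 kb from its start, 3 between 295 and 296 kb and 6 between 314 and 319 kb, and its entacapone peaks fell into the same groups with 8, 3 and 5. Atg4a had 7 vehicle peaks between 42.2 and 45.4 kb and 12 between 196 and 202 kb from its start, and the entacapone list had 4 and 11 there. Folds in Atg4a reached 9.78 in the vehicle list and 10.2 in the entacapone list. Irs1 peaks lay mostly near the start: 6 of its 7 vehicle peaks lay 0.530 to 4.24 kb from the start of a span of 58.3 kb and the other at 54.0 kb. Of its 10 entacapone peaks, 7 lay 0.597 to 4.62 kb from the start. The strongest Irs1 peak was the first, with a fold of 6.65 in the vehicle list and 3.20 for the entacapone peak that overlapped it.

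**Figure D4:**
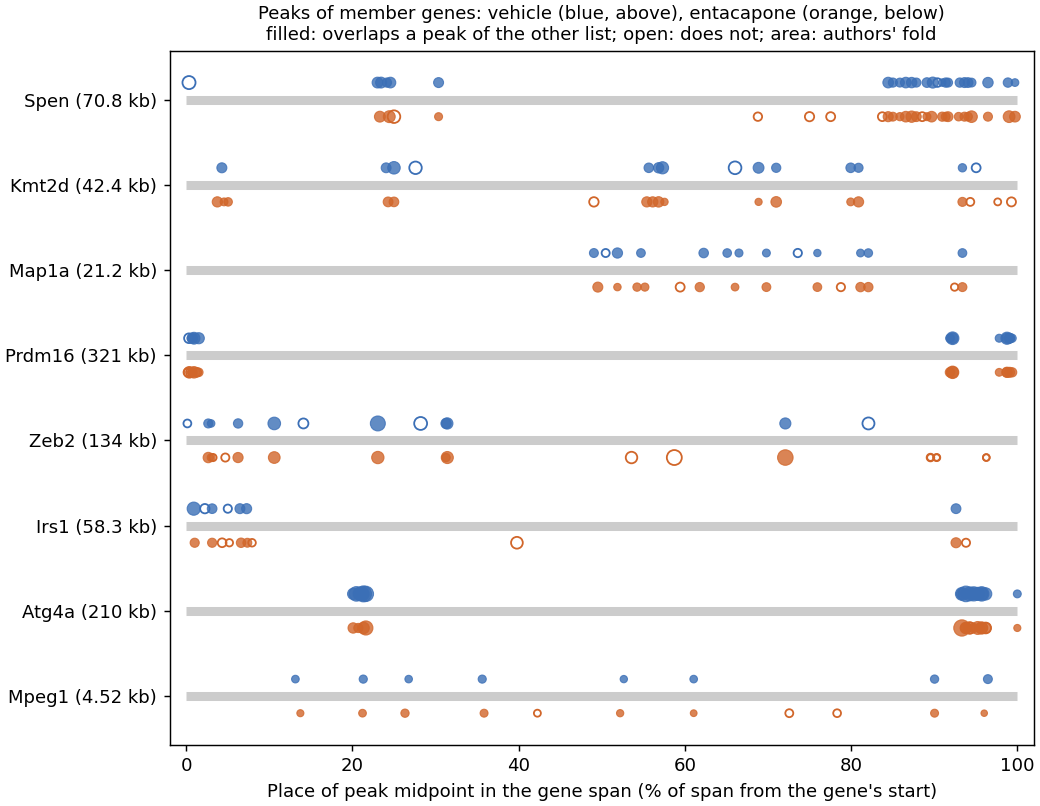
Peaks of 8 member genes of known strand by place in the gene span (x axis, percent of the span from the start), vehicle in blue above each bar and entacapone in orange below it, filled where the peak overlaps one of the other list, with point area growing with the authors' fold. Groups recur at the same places in both lists, as in Prdm16 and Atg4a, while Mpeg1 peaks lie along the whole gene.

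Along the gene, member peaks leaned to the end of the span less than those of other genes. The strand was known for 194 of the 273 members through their start windows in RefSeq. The last 10% of the span held 29.2% of vehicle peaks (95% Clopper-Pearson interval 27.1 to 31.4; n = 1763) and 28.6% of entacapone peaks (26.6 to 30.6; n = 1984). Genes with 2 to 6 midpoints had 36.5% (35.5 to 37.5) and 35.4% (34.5 to 36.3) there. The first 10% held 8.74% and 8.67% in members against 11.9% and 12.4%. The middle of the span was fuller in members, and the median place was 75.7% of the span in each list against 80.9% and 79.5%. Within 5 kb of the end lay 23.7% and 23.0% of member peaks against 55.3% and 53.1%, a distance that is a smaller part of a longer span; the part that length has in this was not tested. All such intervals cover counting error only, and peaks of 1 gene are not independent.

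Most member peaks were found in both lists. Sharing means an overlap of at least 1 bp with a peak of the other list. Of vehicle member peaks, 1938 of 2378 were shared, 81.5% (79.9 to 83.0), and 440 (18.5%) were not; in all protein-coding genes 20.5% of vehicle peaks had no overlap, so the members lay near the background. Of entacapone member peaks, 1911 of 2689 were shared, 71.1% (69.3 to 72.8), and 778 (28.9%) were not, against 43.0% without overlap in all protein-coding genes. Genes with 2 to 6 midpoints in each list were close to members, with 83.1% of vehicle and 70.0% of entacapone peaks shared. The rule asks for peaks in each list, as that comparison set does, and all protein-coding genes include those with a peak in 1 list alone.

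**Figure D5:**
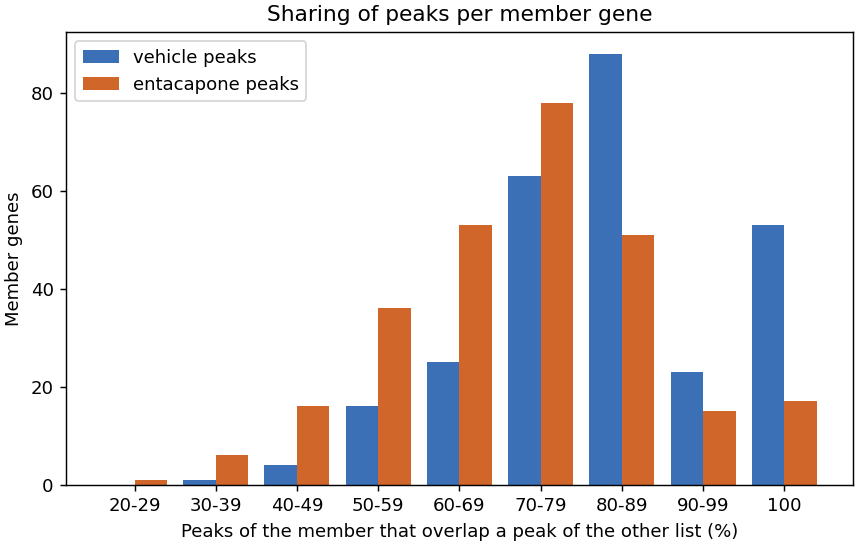
Number of the 273 member genes (y axis) by the percent of the gene's peaks that overlap a peak of the other list (x axis), for vehicle peaks (blue) and entacapone peaks (orange). All vehicle peaks were shared in 53 members and all entacapone peaks in 17.

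Sharing varied from gene to gene. The median member shared 85.7% of its vehicle peaks (range 36.4 to 100%) and 72.7% of its entacapone peaks (25 to 100%). Every peak of both lists was shared in 5 members: Bcl9l with 11 vehicle and 10 entacapone peaks, Ncoa6 with 8 and 8, the zinc finger gene Zfp407 with 8 and 8, Vcpip1, a deubiquitinase, with 8 and 7, and Pcf11, a factor of transcription termination, with 7 and 7. Fewer than 50% of vehicle peaks were shared in 5 members. Among them were Dlc1, a GTPase-activating protein, with 3 of 7, Fli1, an ETS factor of endothelial and blood cells, with 3 of 7, Slc8a1, the sodium-calcium exchanger, with 4 of 11, and the nuclear envelope protein Syne1 with 4 of 9. Celf2 shared 4 of 7 vehicle and 4 of 11 entacapone peaks.

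Entacapone midpoints were more numerous than vehicle midpoints in 166 of the 273 members (60.8%), equal in 60 (22.0%) and fewer in 47 (17.2%). With 1 gene per locus they were more numerous in 150 of 257 (58.4%). Among all genes with a midpoint in each list they were more numerous in 46.4%, and fewer in 14.4%. Small counts tie more often, and in genes with 2 to 6 midpoints 40.2% were equal, so these shares are not on the same footing. As totals, members held 1.13 entacapone peaks per vehicle peak, against 1.17 in genes with 2 to 6 midpoints. The ratio was 1.25 in all genes with a midpoint in each list and 1.38 in all protein-coding genes. Membership needs 7 midpoints in both lists. It left out 345 genes that reached 7 for entacapone only, against 67 that did so for vehicle only, which lowers the member ratio. These ratios are therefore descriptions and do not show a smaller entacapone excess in members. With lists of equal length, taken from the top by fold, 200 genes met the rule and the ratio in them was 0.997. Both lists then hold the same number of peaks by construction, so this ratio tells nothing of where the excess came from. Across the 257 loci, Spearman's rank correlation between vehicle and entacapone midpoints was 0.555, a description over genes chosen on both counts. The entacapone list is longer as a whole, and its input library is deeper (33164576 against 24548212 counts); the read depth of the IP libraries is not given in the sources used here, and the part of depth was not tested.

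The largest differences fell to the protocadherin locus, led by Gm37013, Gm38666 and Gm38667 with 57 vehicle and 81 entacapone midpoints each and Pcdhga5 with 17 and 33. Outside it, picked after the values were seen, Baz2b held 10 vehicle and 19 entacapone midpoints, Maml2 11 and 20, Akap9, a kinase-anchoring scaffold of the Golgi and centrosome, 8 and 15, and Aff1, a transcription elongation factor, 8 and 14. In Baz2b, Maml2 and Akap9 every vehicle peak was shared, with 10 of 19, 11 of 20 and 8 of 15 entacapone peaks shared, so the entacapone list held further peaks beside those of the vehicle list. Aff1 shared 6 of its 8 vehicle peaks. More vehicle than entacapone midpoints were found in Ahdc1, a DNA-binding protein, with 12 vehicle and 8 entacapone midpoints, Atg4a with 20 and 16, and Slc8a1 and the phosphatase gene Ssh2 with 11 and 7 each. All 8 entacapone peaks of Ahdc1 were shared, while Slc8a1 shared 4 in each list.

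Whole groups of peaks in 1 list alone were counted in members only, so no share over other genes stands beside these counts. Of 362 distinct entacapone runs of at least 3 peaks in members, 7 held no shared peak, and of 323 vehicle runs 4 held none. In 3 of the 7 entacapone runs every fold was under 3, and in none of the 4 vehicle runs. Zeb2 had 4 entacapone peaks with folds from 1.60 to 2.23 between 120 and 121 kb from its start, at chr2:44996165-44997774. None of them overlapped a vehicle peak. Dlc1 had 3 entacapone peaks with folds of 1.56 to 1.66 at chr8:36567902-36570312, next to the lower end of its span, and the 2 entacapone peaks that followed had folds of 1.60 and 1.55, none with a vehicle partner. Bod1l had 3 with folds of 1.83 to 2.66. The other entacapone runs without a shared peak reached higher folds. Those in the protocadherin locus had folds of 5.61 to 6.58 and of 3.42 to 5.66, that in Apex2 3.76 to 4.48 and that in Gigyf2 2.02 to 3.06. On the vehicle side, Fat4, a giant cadherin of the Hippo pathway, had 4 peaks with folds from 3.56 to 7.23 and Kmt2c 3 with folds from 4.10 to 8.10 that no entacapone peak overlapped. The other vehicle runs of this kind lay in Cep350, with folds from 2.86 to 5.20, and in the protocadherin locus, with folds from 4.64 to 7.08.

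The height of member peaks was close to that of other peaks. The median fold was 3.27 in the vehicle list (quartiles 2.57 and 4.35) and 3.09 in the entacapone list (2.44 and 4.11), against 3.17 and 2.97 in genes with 2 to 6 midpoints. A fold of at least 4 was reached by 31.0% (29.1 to 32.9) of vehicle member peaks and 26.9% (25.2 to 28.6) of entacapone member peaks, against 31.7% and 26.0% in all protein-coding genes. Folds are the authors' own values for each list, made against different inputs, and serve to describe a list. Peaks in 1 list alone were narrower but not lower: their median width was 81.0 bp (vehicle) and 82.0 bp (entacapone) against 140 and 154 bp for shared ones, and their median fold 3.69 and 3.22 against 3.22 and 3.03. In genes with 2 to 6 midpoints, peaks in 1 list alone were likewise narrow, at 78.0 and 84.0 bp.

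The strongest member peaks, taking no more than 1 from a gene, are given for 3 genes of each list. In Zfp507, a zinc finger gene, the vehicle peak at chr7:35802878-35802978 lay 0.072 kb from the start and had a fold of 18.7, while the next vehicle peak of the gene reached 4.88 and no entacapone peak of it exceeded 5.84. In Dlc1 the vehicle peak at chr8:36905760-36905924 had a fold of 15.4 and overlapped an entacapone peak of 6.18. Nexn, an actin-binding protein of muscle, had a vehicle peak of 13.0 at chr3:152253637-152253757 over an entacapone peak of 2.92. Among entacapone member peaks the highest folds, 1 per gene, were 15.9 in Rora, a nuclear receptor of the clock, at chr9:68760922-68761004, 11.3 in Fndc1 at chr17:7810191-7810555 and 10.7 in Zbtb16 at chr9:48712321-48712474. The Rora and Fndc1 peaks overlapped vehicle peaks of 12.6 and 8.12, and the Zbtb16 peak overlapped none. A high fold in 1 list therefore went with a high fold in the other in Rora and Fndc1, and with a lower one in Dlc1 and Nexn.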

How the data were processed

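Poly(A) RNA of white adipose tissue was fragmented and pulled down with a polyclonal antibody against m6A, per the labels' protocols, and IP and input were sequenced. Per the submitters' processing notes, TopHat2 2.1.1, MACS2 and assembly mm10 were used; the sources used here do not give the MACS2 version or threshold. Each deposited peak list has coordinates and a last column without a name, taken here for the authors' fold enrichment, a linear ratio, because it never falls below 1. Whether starts count from 0 or 1 is not stated, so peaks are given as listed and windows could shift by 1 base. The deposited input files hold raw counts per Ensembl identifier; their totals alone were used, because the identifiers are not paired with names here, and the planned input level of member genes was not run.

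A midpoint was assigned to every protein-coding span (RefSeq, GRCm38.p6) that holds it, and each peak was counted once. Strand came from RefSeq start windows. Exons, UTRs and motifs under most peaks were not computed, since no genome was used. Intervals of shares are exact (Clopper-Pearson, 95%), and those of medians come from binomial order statistics. The interval of the ratio of peak numbers was taken from that of a share. All cover counting error only. The members and the gene lists were chosen with earlier results of these data known. Of the lists, 364 genes were matched by symbol. Named genes are the 12 with the most midpoints, the 4 at each end of difference, span and sharing, up to 4 per gene list, 3 peaks of largest fold per list and 3 genes on each side of the threshold, with ties by symbol; others were chosen after their values were seen, and some genes are not reported here. Alternatives changed the minimum, the gene assignment, the fold, the list length, the merging and the overlap. Scripts (Python 3.11.15, pandas 2.3.3, NumPy 2.4.6, SciPy 1.17.1) were tested on simulated data.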

Additional observations from a re-analysis of the deposited data

How the results depend on the processing

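Of 124 values recomputed under 10 alternatives, 82 stayed within their interval or 1.5 times the reported count and 42 moved; merging peaks less than 100 bp apart (262 genes) and, added after seeing the data, leaving out the protocadherin locus (256 genes) moved none. Every alternative set with fewer genes was a subset of the 273. Values are given as vehicle then entacapone. A minimum of 5 midpoints gave 796 genes, 5274 and 5968 peaks, a median span of 69.2 kb, an entacapone fold of 3 and 32.0% and 31.4% of peaks in the last 10% of the span. A minimum of 10 gave 84 genes, 899 and 1013 peaks, 120 kb, an entacapone spacing of 987 bp and 26.5% and 25.8%. With 1 gene per peak (238 genes) the entacapone fold was 3.03. With folds of at least 2 (227 genes), 77.1% of vehicle peaks were shared and the folds were 3.45 and 3.26. With folds of at least 4 (23 genes) there were 113 and 126 peaks, 56.6% and 46.8% shared, a span of 157 kb, spacings of 1758 and 4040 bp, folds of 5.82 and 5.29, widths of 108 and 105 bp and 26.6% of entacapone peaks in the last 10% of the span. So few distinct peaks mean that some of these 23 genes share peaks. Among members only the protocadherin genes do so, and that locus is thus counted as several genes here. With lists of equal length by fold (200 genes) there were 1752 entacapone peaks, 70.1% of vehicle peaks were shared, the ratio of entacapone to vehicle peaks was 0.997, the entacapone spacing 1300 bp, the folds 3.54 and 3.53, and 25.4% of entacapone peaks lay in the last 10% of the span. An overlap of 50% of the shorter peak left 79.0% and 69.0% shared, and midpoints within 100 bp 73.3% and 64.7%. Fold and list-length alternatives remove peaks by construction; the cause of the other moves was not tested. No paired analysis was possible because each kind has 1 library. Other settings for the input level of member genes (total counts, DESeq2 size factors, no filter, another interval) were not run.

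The depth of the IP libraries is not given in the sources used here, so a peak missing from a list is not shown to be absent from the RNA.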

Other observations

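Families that share a symbol stem were counted after the members were seen, so these counts are a description. Of all protein-coding genes 1.25% were members, and of those with a midpoint in each list 3.22%. All 4 Baz genes, 4 of 5 Kmt2 genes and 3 of 10 Chd genes were members, families of chromatin proteins. Pcdh genes had 16 of 69 (23.2%), many of which share the peaks of the protocadherin locus. Arhgap and Arhgef genes, which regulate small GTPases, had 7 of 59 (11.9%). Cep genes of the centrosome had 4 of 38 (10.5%) and Ankrd genes 4 of 47 (8.51%). Zfp genes had 12 of 397, or 3.93% of the 305 with a midpoint in each list, close to the 3.22% of all genes with a midpoint in each list. Of 375 Slc transporter genes 1 was a member, Slc8a1, or 0.606% of the 165 with a midpoint in each list. None of 97 Rpl and Rps ribosomal protein genes, 49 Nduf genes of respiratory complex I or 1110 Olfr olfactory receptor genes was a member. Of these, 9, 11 and 4 had a midpoint in each list, too few to set against 3.22%.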
